A study of Mus musculus with 2 samples.

Results

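The 8 genes described here are interferon-inducible GTPases of the mouse, 4 guanylate-binding proteins (Gbp2b, Gbp2, Gbp3 and Gbp7) and 4 immunity-related GTPases (Igtp, Irgm1, Iigp1 and Ifi47). They were taken by symbol from the 26078 genes of the count matrices, and each had UMIs in both libraries. The 8 were picked with their levels in these libraries already known, so the levels and ratios of the members are a description, with no test. By its title, the series addresses how red cell uptake reprograms Kupffer cells, which are macrophages that live in the liver. Liver macrophage preparations from mice of the C57BL/6J strain aged 7 to 10 weeks gave 2 samples. Of these, 1 followed Ter119, an antibody against a red cell surface antigen, and 1 followed saline. The number of mice in each sample is not stated here. The Ter119 treatment was 35 ug under the skin and then 10 daily doses of 10 ug, and the saline treatment was a like volume. Livers were taken 24 after the last dose, a time for which the labels give no unit, and macrophages were pulled from the non-parenchymal cells on anti-rat IgG beads coated against F4/80 and CD11b. The cells carried hashtag antibodies and were pooled, and each transcript was tagged at its 3′ end with a unique molecular identifier (UMI). With 1 sample and 1 library in each group, what belongs to the treatment, to the mice and to the library cannot be told apart. All intervals are 95% intervals and cover counting error only.

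Guanylate-binding proteins and immunity-related GTPases are GTP-hydrolysing proteins that cells make in quantity when interferon gamma, and to a lesser degree type I interferon, signals through its receptor. They gather on the membranes of vacuoles that hold parasites or bacteria, and help to break these vacuoles open and to feed their contents to inflammasomes. Among the immunity-related GTPases, Irgm1 and Igtp sit on the cell's own membranes and hold the effector members back from them, whereas Iigp1 is such an effector that coats the parasite's vacuole. Macrophages are a major site of this defence, and endothelial cells also make these proteins after interferon.

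The 4 guanylate-binding proteins lie in a cluster on chromosome 3 of GRCm38, all on the + strand. Gbp7 (ENSMUSG00000040253) spans 142530342 to 142550149, Gbp3 (ENSMUSG00000028268) 142560026 to 142573209, Gbp2b (ENSMUSG00000040264) 142594847 to 142619179 and Gbp2 (ENSMUSG00000028270) 142620602 to 142638008. Gbp2b and Gbp2 are thus neighbours, with 1422 bases between their gene models. Irgm1 (ENSMUSG00000046879) spans 48861968 to 48871683 on the - strand of chromosome 11, Ifi47 (ENSMUSG00000078920) 49076587 to 49096974 and Igtp (ENSMUSG00000078853) 58199556 to 58207591 on its + strand. Igtp overlaps Irgm2, and Ifi47 overlaps Olfr56, on the same strand, so reads in the shared parts may not tell the overlapping genes apart. Among the last 500 bases of each transcript, where 3′ libraries place most reads, 0 of 451 stretches of 50 bases were shared with another gene for 7 of the members, and 18 of 451 (3.99%) for Irgm1.

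The sequences just upstream of these genes are shown because the family is defined by its response to interferon, and because the results turn on Gbp2b, whose level differed between the libraries far more than that of its neighbours. Promoter windows (250 bases before to 50 after the RefSeq start, GRCm38.p6) were searched on both strands for GAAANNGAAA, the core of the interferon-stimulated response element (ISRE), and for TTCNNNGAA, the gamma-activated site (GAS). Of 32851 windows, 1131 (3.44%) held the ISRE letters and 2726 (8.30%) the GAS letters. The ISRE letters were found upstream of Gbp2b, Gbp2, Gbp3, Gbp7, Igtp and Irgm1, in Gbp3 and Irgm1 as 2 matches that overlap, and neither motif was found in the Ifi47 window. The window of Iigp1 was not used here. Each site is given 5′ to 3′ along its gene, with the matching letters of either strand in capitals.
Gbp2b ISRE site, chr3:142594700-142594729 (+ strand): gtacttctaaTTTCACTTTCttctttatca
Gbp2 ISRE site, chr3:142620594-142620623 (+ strand): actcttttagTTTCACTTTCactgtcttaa
Gbp3 ISRE site, chr3:142559992-142560021 (+ strand): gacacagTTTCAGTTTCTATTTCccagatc
Gbp7 ISRE site, chr3:142530273-142530302 (+ strand): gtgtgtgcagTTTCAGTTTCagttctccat
Igtp ISRE site, chr11:58199512-58199541 (+ strand): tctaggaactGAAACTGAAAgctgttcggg
Irgm1 ISRE site, chr11:48871428-48871457 (- strand): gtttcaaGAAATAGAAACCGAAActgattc

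The GAS letters were found in Gbp7, at 2 places, and in Igtp, where they end just before the ISRE letters begin. The capitals mark the GAS letters.
Gbp7 GAS site, chr3:142530220-142530249 (+ strand): tccgttttctTTCCAGGAAaagcagaagct
Gbp7 GAS site, chr3:142530239-142530268 (+ strand): aagcagaagcTTCTCAGAAagtcagcacaa
Igtp GAS site, chr11:58199501-58199530 (+ strand): aactagccatTTCTAGGAActgaaactgaa

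For Gbp2b the 250 bases before its start are shown whole, chr3:142594597-142594846 on the + strand, with the ISRE letters in capitals at bases -137 to -128 from the start. In Gbp2 the match is nearer to its start, at -59 to -50, and it has the same 10 letters, TTTCACTTTC. The RefSeq starts of Gbp2 and Irgm1, from which bases are counted here, lie inside the GENCODE gene models given above, so their matches do too.
Gbp2b upstream: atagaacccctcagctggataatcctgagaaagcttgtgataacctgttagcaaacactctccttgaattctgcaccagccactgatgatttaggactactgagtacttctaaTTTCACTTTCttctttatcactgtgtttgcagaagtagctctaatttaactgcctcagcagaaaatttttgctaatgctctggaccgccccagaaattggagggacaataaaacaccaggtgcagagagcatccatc

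After filtering, 13846 Ter119 cells (median 2803 UMIs) and 11572 saline cells (median 6239 UMIs) remained, of 25760 Ter119 barcodes (61892074 UMIs) and 18354 saline barcodes (97181787 UMIs). Cells were gated by a panel of marker genes for each type, so the types are rebuilt and not the authors' own. The Kupffer gate held 8192 Ter119 cells (59.2%, median 3626.5 UMIs) and 9808 saline cells (84.8%, median 6721 UMIs). Of the 10 genes that led it by fold, 5 in Ter119 and 9 in saline were its own markers, and all 15 markers were detected in both, summing to 27287 CPM (counts scaled to a total of 1000000 UMIs of the gated cells) in Ter119 and 43771 CPM in saline. The levels of single markers differed widely between the libraries. Cd5l had 5259 CPM in Ter119 and 7396 CPM in saline, Clec4f 947 and 5286 CPM, Vsig4 608 and 3174 CPM, Folr2 181 and 1197 CPM, C6 54.6 and 1026 CPM, and Timd4 24.8 and 575 CPM. Marco, a scavenger receptor gene, was higher, with 4009 CPM in Ter119 and 843 CPM in saline. When the cells were clustered, those of the 2 libraries also fell into different Kupffer-named clusters. Clusters 1, 2 and 6 held 4052, 2312 and 1321 Ter119 cells and 1, 0 and 0 saline cells, while clusters 0, 4 and 7 held 2, 5 and 1 Ter119 cells and 4916, 2064 and 1265 saline cells. The comparison of Kupffer-gated cells below is thus between cells of different clusters, and the part of that in the results was not tested. Other gates held 950 Ter119 and 569 saline endothelial cells, 763 and 282 monocytes, 515 and 174 neutrophils, and 604 and 0 hemoglobin-rich cells. A further 1846 Ter119 and 450 saline cells passed several gates and were left out. Cells close to the Kupffer threshold (80 to 125 marker UMIs per 10000) were 10.7% of Ter119 and 2.43% of saline cells. The libraries shared 133 barcode sequences, 17 of them in the Kupffer gate of both, and without shared barcodes the ratio of Gbp2b was 0.0130, against 0.0129 with them. Transcripts of other cells were found in the Kupffer gate, with erythroid markers at 65119 CPM in Ter119 and 154 CPM in saline and hepatocyte markers at 338 CPM in Ter119 and 2222 CPM in saline. All 13 erythroid and all 6 hepatocyte markers were detected in both libraries, and their part in the results was not tested.

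In Kupffer-gated cells the family split between Gbp2b, which was almost missing from the Ter119 library, and 7 other genes, each of which stood within 2-fold in both libraries. Gbp2b had 3.43 CPM in Ter119 cells (106 UMIs, interval 2.81 to 4.15 CPM) and 265 CPM in saline cells (19292 UMIs, 261 to 269 CPM). It was thus 77.3 times lower in Ter119 (63.9 to 94.5), a log2 ratio of -6.27. Of 6421 genes with at least 20 CPM in 1 library, Cd209f (log2 ratio -9.87) and the chemokine gene Cxcl13 (-7.83) had lower ratios, and Gbp2b ranked 3. Sectm1a followed at -5.92.

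Among the other guanylate-binding proteins, Gbp2, the neighbour of Gbp2b and a member needed for resistance to Toxoplasma in mice, differed the other way. It had 155 CPM in Ter119 (151 to 160) and 98.3 CPM in saline (96.1 to 101), a ratio of 1.58 (1.52 to 1.64). Gbp3 had 71.8 CPM in Ter119 (68.8 to 74.9) and 128 CPM in saline (126 to 131), a ratio of 0.559 (0.534 to 0.586). Gbp7 had 132 CPM in Ter119 and 149 CPM in saline, a ratio of 0.888 (0.856 to 0.921). Within 1 cluster of neighbouring genes, the ratios in Kupffer-gated cells therefore ran from 0.0129 to 1.58, and Gbp2 was the member of the 8 that stood higher in Ter119 under CPM scaling.

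The immunity-related GTPases all stood somewhat lower in Ter119. Of the regulators, Irgm1 had 58.0 CPM in Ter119 and 99.6 CPM in saline (ratio 0.582, 0.552 to 0.613). Igtp, the other regulator, had 28.1 CPM in Ter119 and 37.7 CPM in saline (ratio 0.746, 0.690 to 0.805). The effector Iigp1 had 121 CPM in Ter119 and 170 CPM in saline (ratio 0.711, 0.685 to 0.737). Ifi47, another interferon-induced member of this group, had 78.4 CPM in Ter119 and 138 CPM in saline (ratio 0.568, 0.543 to 0.594). None of these 4 intervals includes 1, but they hold counting error only, and no second sample shows how far 2 samples of the same group would differ.

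By the size rule, 1 of the 8 members (Gbp2b) was at least 2-fold lower in Ter119 and 0 were higher by that size. Among all 6421 genes, 643 (10.0%) passed it in the lower and 214 (3.33%) in the higher direction. The median log2 ratio was -0.64 over the 8 members and -0.49 over the 7 without Gbp2b, and -0.28 over all genes. Measured from that all-gene median, Gbp2 stood at 0.94, Gbp7 at 0.11, Igtp at -0.14, Iigp1 at -0.21, Irgm1 at -0.50, Ifi47 at -0.53, Gbp3 at -0.56 and Gbp2b at -5.99. Median-of-ratios factors moved the median of all genes to 0.04 and TMM factors to 0.02. Under them, 331 genes were at least 2-fold lower and 375 higher, and 338 lower and 360 higher. Gbp7 then had a log2 ratio of 0.15 and 0.13, above 0, while each other member kept its direction.

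**Figure D1:**
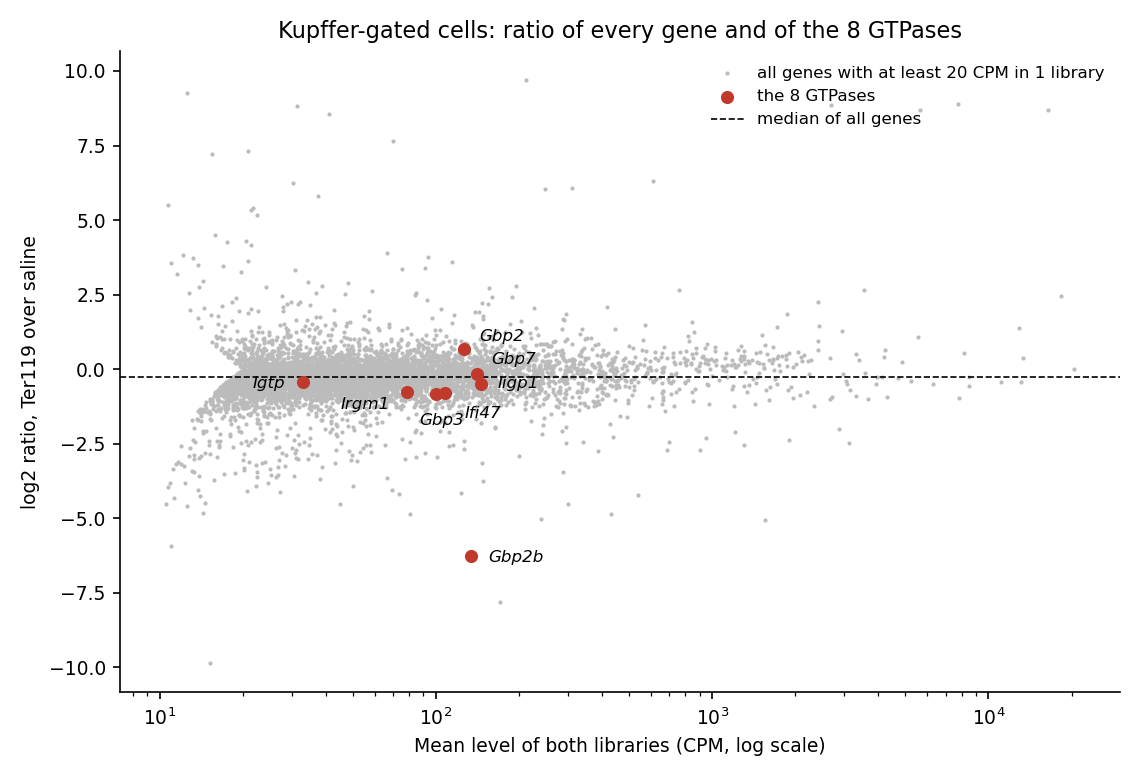
Log2 ratio of Ter119 over saline (vertical axis) against the mean CPM of both libraries (horizontal, log scale) in Kupffer-gated cells, where grey points are the 6421 genes with at least 20 CPM in 1 library, red points the 8 GTPases, and the dashed line the median of all genes at -0.28. Gbp2b lies apart at -6.27, and the other 7 lie between -0.84 and 0.66.

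The make-up of the family's transcripts is drawn from the same UMIs and does not depend on scaling between libraries. The shares add up to the whole, so a lower share of Gbp2b goes with higher shares of the rest. Gbp2b made up 0.529% of the UMIs of the 8 genes in Ter119 Kupffer-gated cells (0.434 to 0.640%) and 24.4% in saline ones (24.1 to 24.7%), where it was the most counted of the 8. Gbp2 made up 24.0% of them in Ter119 and 9.06% in saline, and was the most counted member in Ter119. Gbp7 made up 20.4% in Ter119 and 13.7% in saline, and Iigp1 18.6% and 15.6%. The shares of Gbp3 (11.1% in Ter119 and 11.8% in saline), Ifi47 (12.1% and 12.7%), Irgm1 (8.95% and 9.18%) and Igtp (4.34% and 3.47%) were closer. Summed, the 7 genes other than Gbp2b had 644 CPM in Ter119 and 821 CPM in saline (ratio 0.785, 0.773 to 0.798). That is a log2 ratio of -0.35 with CPM and of -0.02 with median-of-ratios factors, so their sum was near level under the second scaling.

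**Figure D2:**
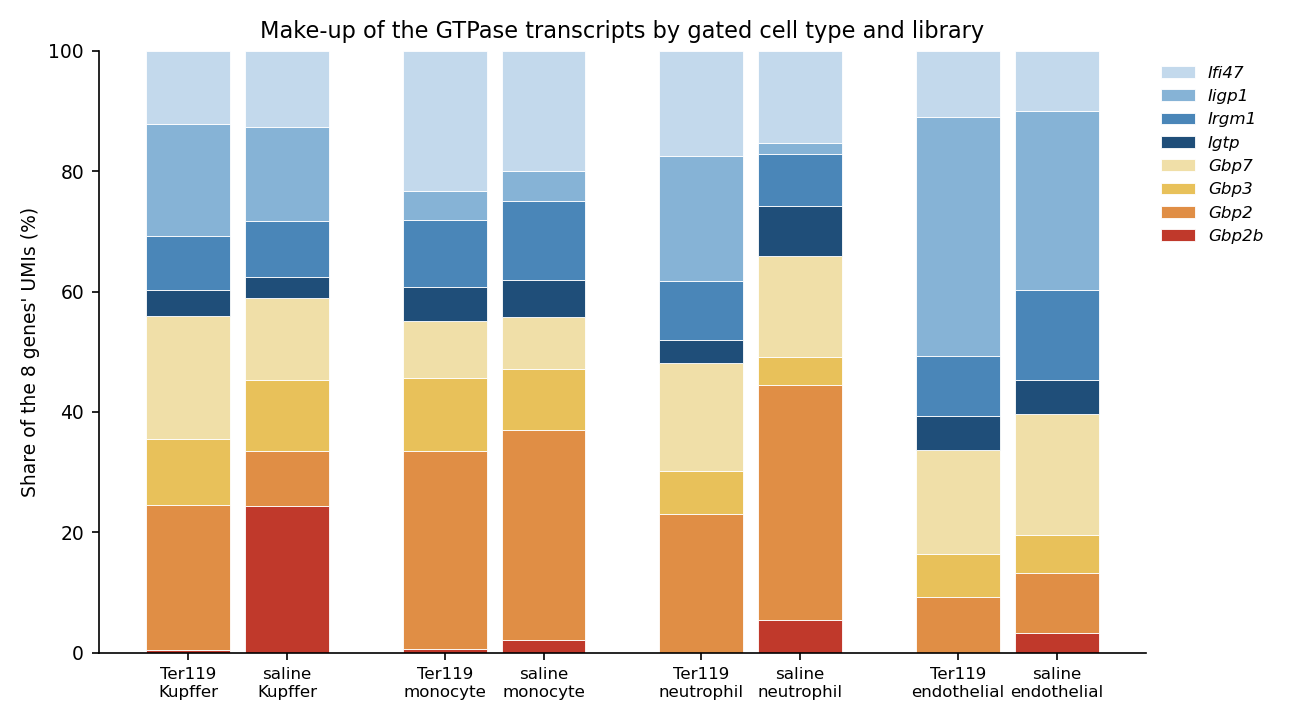
Share of the summed UMIs of the 8 GTPases (vertical axis, percent) taken by each gene, in 4 gated cell types, Ter119 at the left of each pair and saline at the right. Gbp2b (red, at the base) fills 24.4% of the saline Kupffer bar and 0.529% of the Ter119 Kupffer bar, and Iigp1 fills the largest part of both endothelial bars.

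Saline cells held more UMIs, so the share of cells with a UMI was compared after each Kupffer-gated cell was thinned to 1000 UMIs. A Gbp2b UMI was then found in 0.342% of Ter119 cells (28 of 8192, interval 0.227 to 0.494%) and in 23.0% of saline cells (2251 of 9808, 22.1 to 23.8%). Unthinned, the shares were 1.12% in Ter119 and 67.8% in saline. Hemoglobin-rich Ter119 cells (median 3149 UMIs), which should lack the gene, had 1 Gbp2b UMI, both before and after thinning (0.166% of cells, 0.00419 to 0.919%). With all UMIs counted their level was 0.485 CPM (0.0123 to 2.70), at most 80.5% of the Kupffer level at the upper end of the interval, and that of Ter119 endothelial cells, with 0 UMIs, was at most 72.6% of it. The few Ter119 Gbp2b UMIs thus stood above the level in these 2 types, whereas the 6 UMIs of Ter119 monocytes gave 115% of the Kupffer level, with a wide interval (41.4 to 260%). In saline, thinned endothelial cells and monocytes had a Gbp2b UMI in 3.34% and 2.48% of cells, well under the 23.0% of Kupffer-gated cells. Gbp2 was found in 13.2% of thinned Ter119 cells and 8.55% of saline cells, Ifi47 in 7.56% and 12.3%, and Iigp1 in 10.2% and 15.4%. At least 1 of the 7 other than Gbp2b was found in 43.4% of thinned Ter119 cells and 52.9% of saline cells, so cells with transcripts of the family were common in both libraries. In thinned saline cells, Gbp2b was found about as often in cells with another member (23.5%, 22.3 to 24.6%) as in cells with none (22.4%, 21.2 to 23.6%), and the intervals overlap.

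The difference in Gbp2b was present in each part of the Kupffer gate that was looked at. In 4 ranges of depth, from 1000 to 2000 UMIs up to 8000 or more, the ratio of Ter119 over saline ran from 0.00965 to 0.0170 for Gbp2b, while that of Gbp2 ran from 1.49 to 1.73. Cells with a UMI of Timd4, a receptor for dying cells that marks long-resident Kupffer cells, had a Gbp2b ratio of 0.0241 (0.0132 to 0.0405), and cells without one 0.0143 (0.0114 to 0.0177). Cells with a UMI of Clec4f, a Kupffer cell lectin, had a ratio of 0.0135 and cells without one 0.0189 (0.00933 to 0.0391). Few saline cells lacked it, as 9763 of 9808 had a Clec4f UMI. For cells with a UMI of Gpnmb, a glycoprotein of lipid-laden macrophages, the ratio was 0.0168, with 5078 such cells in Ter119 but 30 in saline. The Gbp2 ratio was 0.981 (0.742 to 1.32) in cells with a Gpnmb UMI and 1.67 (1.58 to 1.77) in cells without one. Cycling and other cells had Gbp2b ratios of 0.0175 and 0.0125.

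Cells that held Cxcl10, a chemokine gene induced by interferon, were then set against the rest of the Kupffer gate in the same library. A Cxcl10 UMI was present in 347 Ter119 and 1397 saline Kupffer-gated cells, and 3 or more were present in 62 Ter119 and 350 saline cells, a limit chosen after the data were seen. In Ter119 cells with 3 or more, Iigp1 had 966 CPM, against 106 CPM in Ter119 cells without a Cxcl10 UMI, 9.15 times as much (8.10 to 10.3). Gbp2 had 825 CPM in these cells and 144 CPM in those without (5.72 times, 5.02 to 6.49), and the 7 genes other than Gbp2b together 2780 and 607 CPM (4.58 times). Each of the 7 had more CPM in them than in the cells without Cxcl10, the least being 1.81 times for Gbp3 (1.29 to 2.47). Gbp2b was too rare to be compared there. It had 1 UMI in these 62 cells (3.21 CPM, interval 0.0813 to 17.9), against 3.50 CPM in Ter119 cells without Cxcl10, a ratio of 0.916 whose interval (0.0230 to 5.22) is wide. In the 347 cells with 1 or more Cxcl10 UMIs it had 3 UMIs, 0.567 times the level of cells without Cxcl10 (0.115 to 1.704). That interval lies below those of Iigp1 (3.57 to 4.24) and Gbp2 (2.34 to 2.79) in the same cells, but overlaps those of Gbp3 (1.01 to 1.45), Gbp7 (1.499 to 1.89), Igtp (1.57 to 2.52), Irgm1 (1.47 to 2.08) and Ifi47 (1.53 to 2.05).

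In saline the steps of these 7 genes were smaller. Cells with 3 or more Cxcl10 UMIs had 1.67 times the Iigp1 level of cells without Cxcl10 (273 and 163 CPM), 2.28 times the Gbp2 level (206 and 90.3 CPM) and 1.21 times the Gbp2b level (317 and 261 CPM, 1.14 to 1.28). All 8 members stood higher in them. Cells with Cxcl10 were also deeper, with a median of 4896 UMIs in the 62 Ter119 cells and 11129 in the 350 saline cells, against 3601 and 6308 in cells without Cxcl10, and the part of depth was not tested. A limit of 3 UMIs also asks for a higher Cxcl10 level in the shallower Ter119 cells than in the saline ones. The steps in each library and the ratios between them may thus compare unlike cells, and the part of this was not tested. In cells with 3 or more Cxcl10 UMIs, Gbp2 was 4.01 times higher in Ter119 than in saline (3.47 to 4.61). For Gbp2b the ratio rests on 1 Ter119 UMI, and its interval is wide (0.0101, 0.000257 to 0.0566).

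**Figure D3:**
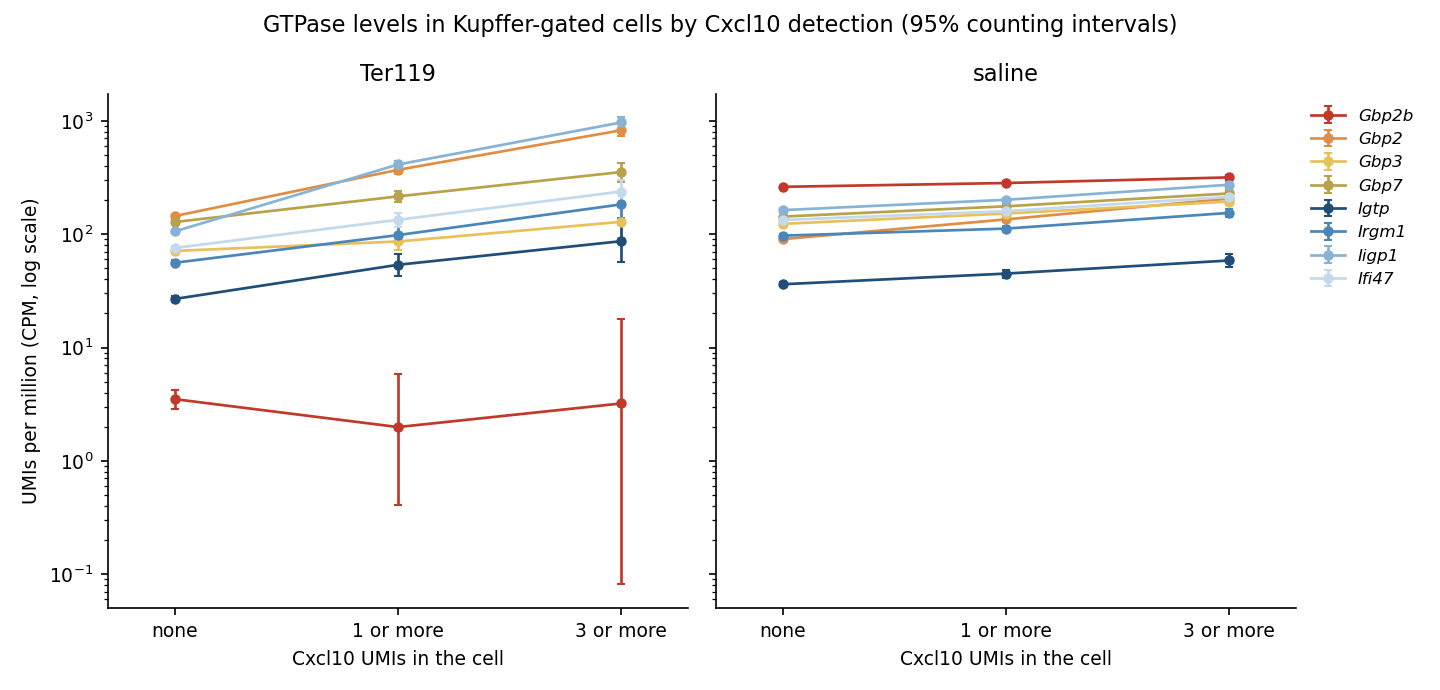
CPM of each GTPase (vertical axis, log scale, with 95% counting intervals) in Kupffer-gated cells with no Cxcl10 UMI, with 1 or more, and with 3 or more (the last lie within the second), for Ter119 at the left and saline at the right. In Ter119, Iigp1 and Gbp2 stand at 966 and 825 CPM in the cells with 3 or more, and Gbp2b (red) at 3.21 CPM.

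Across cell types the members fell into different patterns, read here against free RNA that droplets take up from broken cells. The Kupffer cell lectin Clec4f, which other types should lack, was found in the other gated types at 15.3 to 20.8% of its Kupffer level in Ter119 and at 4.50 to 14.3% in saline. Clec4f and Cd5l are markers of the Kupffer gate, and cells that also passed that gate were left out of the others. Their levels outside the Kupffer gate are thus held down by the gating and may understate free RNA. Cxcl13 is not a marker of the gate. In saline, Gbp2b stood at 63.5 CPM in neutrophils, 29.99 in endothelial cells and 23.8 in monocytes, which is 23.9%, 11.3% and 8.97% of its Kupffer level. Clec4f stood at 14.3%, 9.31% and 6.18% of its Kupffer level in those saline types, below Gbp2b in each. Gbp2b was also above Clec4f in saline dendritic (7.47% and 4.50%), B (10.2% and 8.39%) and T or NK cells (9.98% and 6.39%). In neutrophils, endothelial cells and monocytes the intervals of Gbp2b and Clec4f overlapped, which does not show that the levels were alike. These intervals were 15.6 to 35.1% and 12.7 to 15.96% in neutrophils, and 8.76 to 14.4% and 8.76 to 9.87% in endothelial cells. In monocytes they were 6.63 to 11.9% and 5.72 to 6.66%. Cxcl13 stood at 13.7%, 11.2% and 9.03% in these types, and Cd5l at 12.0%, 8.14% and 5.91%. Whether Gbp2b exceeded free RNA in them was not tested. The level of Gbp2b in any saline type outside the Kupffer gate was thus at most 23.9% of that in it, whereas for each of the other 7 members another saline type reached 88.8% of the Kupffer level or more.

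In the monocyte and endothelial gates each of the other 7 stood at a larger part of its Kupffer level than Clec4f. For Iigp1 in Ter119 monocytes, however, the interval (18.4 to 33.6%) overlapped that of Clec4f (14.5 to 18.8%). In the monocyte gate, Gbp2 had 212 CPM in Ter119 and 394 CPM in saline, which is 136% of its Ter119 and 401% of its saline Kupffer level. Ifi47 had 150 CPM in Ter119 monocytes and 226 CPM in saline ones, 192% and 164% of the Kupffer levels. Iigp1 (ENSMUSG00000054072, GRCm38 chromosome 18, 60376027 to 60392634, + strand) had its highest level in endothelial cells of both libraries, with 429 CPM in Ter119 (397 to 464) and 265 CPM in saline (245 to 288), 356% and 156% of the Kupffer levels. In monocytes Iigp1 was low, at 30.3 CPM in Ter119 and 56.3 CPM in saline, 25.2% and 33.2% of the Kupffer levels.

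Endothelial cells were the gated type in which the family as a whole stood higher in Ter119. The 7 genes other than Gbp2b summed to 1080 CPM in Ter119 and 864 CPM in saline (ratio 1.25, 1.17 to 1.34). Iigp1 had a ratio of 1.62 (1.45 to 1.81), Gbp3 1.33 (1.02 to 1.73) and Ifi47 1.32 (1.07 to 1.62), while Irgm1 had 0.808 (0.664 to 0.982). The intervals of Gbp2, Gbp7 and Igtp include 1. Gbp2b had 0 UMIs in 950 Ter119 cells and 67 UMIs in 569 saline cells. By the interval of the ratio it was at least 11.9-fold lower in Ter119, and it was 15.1-fold lower with 3 UMIs in place of 0. Gbp2b was the 1 of 8 members at least 2-fold lower here, where 4.29% of 7293 genes were lower and 3.40% higher by that size, and the median of all genes was -0.15. Its saline level here was 11.3% of that in Kupffer-gated cells, beside 9.31% for Clec4f, and the part of free RNA in its ratio was not tested. The median was 0.24 over the 8 members. Median-of-ratios factors added 0.13 to each log2 ratio and turned no direction. The Kupffer marker Clec4f stood at 20.8% of its Kupffer level in Ter119 endothelial cells and at 9.31% in saline ones, and the median depth was 1427.5 UMIs in Ter119 and 3801 UMIs in saline.

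In the monocyte gate all 8 members stood lower in Ter119, and 2 of them, Gbp2b and Irgm1, at least 2-fold, where 2.71% of 6097 genes were lower and 2.10% higher by that size. Gbp2b had 6 UMIs in 763 Ter119 cells and 49 UMIs in 282 saline cells, a ratio of 0.167 (0.0583 to 0.389). Its saline level was 8.97% of the Kupffer level, beside 6.18% for Clec4f, and the part of free RNA in its ratio was not tested. Gbp2 had a ratio of 0.537 (0.470 to 0.612), and Irgm1 had 71.9 CPM in Ter119 and 147 CPM in saline (ratio 0.488, 0.388 to 0.609). Irgm1 was no longer past 2-fold with median-of-ratios factors (log2 ratio -0.94). The members' median log2 ratio was -0.89, and that of all genes -0.11. The gates did not hold like cells in both libraries: Elane, a granule protease gene of immature myeloid cells, had 267 CPM in Ter119 monocytes and 0.970 CPM in saline ones, and the part of this in the result was not tested.

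In the neutrophil gate 7 of the 8 members were at least 2-fold lower in Ter119, all but Iigp1, but 31.9% of 5606 genes were lower and 15.8% higher by that size. Gbp2 had 43.7 CPM in Ter119 and 454 CPM in saline (ratio 0.0963, 0.0698 to 0.131). The 186 saline UMIs of Gbp2 lay in 30 of 174 cells, and after thinning 3.69% of Ter119 and 13.2% of saline cells had one. Gbp2b had 0 UMIs in 515 Ter119 cells and 26 UMIs in 174 saline cells. By the interval of the ratio Gbp2b was at least 19.8-fold lower, and it was 26.1-fold lower with 3 UMIs in place of 0. Iigp1 had 39.7 CPM in Ter119 and 21.97 CPM in saline, with an interval of the ratio (0.878 to 4.18) that includes 1. The saline value rests on 9 UMIs and is 12.9% of the Kupffer level (5.92 to 24.6%), beside 14.3% for Clec4f. The part of free RNA in it was not tested. In Ter119 neutrophils the 7 genes other than Gbp2b stood at 19.2 to 42.4% of their Kupffer levels, beside 15.3% for Clec4f, and the part of free RNA was not tested. These gates held neutrophils of different stages. Camp, a gene of immature neutrophils, had 39772 CPM in Ter119 and 142 CPM in saline, whereas Cxcr2, a receptor of mature neutrophils, had 104 CPM in Ter119 and 1653 CPM in saline. The levels of the GTPases are thus given beside a difference in stage whose part was not tested.

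**Figure D4:**
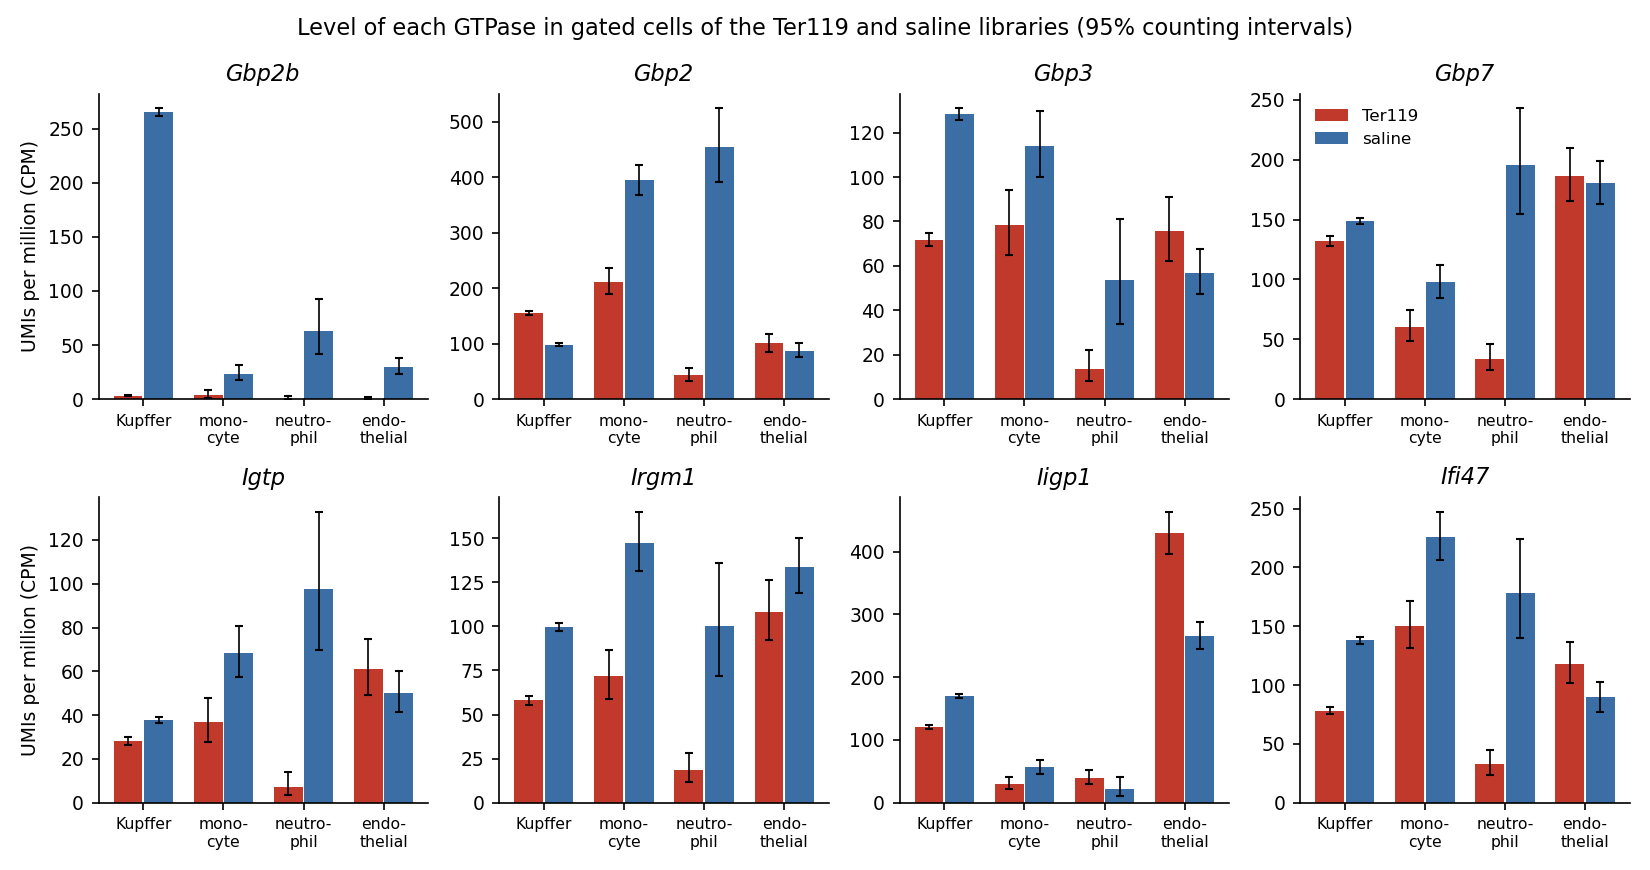
CPM of each of the 8 GTPases (vertical axes, from 0, with 95% counting intervals) in Kupffer, monocyte, neutrophil and endothelial gated cells, Ter119 (red) at the left of saline (blue). Gbp2b shows 1 tall bar, saline Kupffer cells at 265 CPM, and Iigp1 is highest in endothelial cells, at 429 CPM in Ter119 and 265 CPM in saline.

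Small gates gave counts only. B cells had 0 Gbp2b UMIs among 31 Ter119 cells and 9 among 64 saline cells, and T or NK cells 0 among 92 Ter119 and 4 among 24 saline cells. Dendritic cells had 1 Gbp2b UMI among 52 Ter119 and 7 among 34 saline cells. Ifi47 was counted 29 times in the Ter119 and 41 times in the saline T or NK cells, 204% and 197% of the Kupffer levels. Hemoglobin-rich Ter119 cells (604) had 1 Gbp2b UMI and 485 UMIs of the other 7 members, 235 CPM.

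Profiles over 12 combinations of gated type and library with at least 50 cells were compared among 9439 genes, as a description, since points of 1 library share depth and free RNA. The genes most like Gbp2b were Apoc1 (Pearson's r 0.938), Cxcl13 (0.929), Cps1 (0.915), Ctc1 (0.914) and Ahsg (0.908). Cps1 and Ahsg are hepatocyte genes, and the part of hepatocyte transcripts in this likeness was not tested. None of the other 7 members had an r above 0.627 (Irgm1) with Gbp2b, and the lowest was 0.148 (Iigp1). The genes most like the mean of the other 7 were Parp14 (0.947), Akt1 (0.932), Erbin (0.925), Ifit3 (0.922) and Gna13 (0.921), of which Parp14 and Ifit3 are interferon-induced.

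Most, but not all, other interferon genes had a lower level in Ter119 Kupffer-gated cells with CPM, and how many did depended on the scaling. Ratios were below 1 for 7 of 7 further interferon-inducible GTPases, 13 of 14 signalling genes, 16 of 18 interferon gamma targets and 20 of 21 type I targets. With median-of-ratios or TMM factors these counts were 6 of 7, 12 of 14, 11 of 18 and 20 of 21. Most of all 6421 genes also had a ratio below 1 with CPM: Gbp7, at a log2 ratio of -0.17, ranked 3756 from the lowest. The median log2 ratio of all genes was -0.28 with CPM, 0.04 with median-of-ratios and 0.02 with TMM factors. The counts past 2-fold below stand against 643 of all 6421 genes (10.0%) that were at least 2-fold lower with CPM. Of 19 further interferon-inducible GTPases, 18 were measured and 7 reached 20 CPM in 1 library. With CPM all 7 had a ratio below 1 (Gbp8 turned above 1 under the other scalings), with a median log2 ratio of -0.72, and 3 were at least 2-fold lower: Gbp4 (18.2 CPM in Ter119 and 59.1 CPM in saline, ratio 0.307), Irgm2, another regulator of the family (0.451), and the antiviral Mx1 (0.462). Gbp5, which promotes inflammasome assembly, had a ratio of 0.614, Gm4951 0.643, Gbp9 0.605 and Gbp8 0.943. None of these 7 relatives was more than 3.26 times lower, against 77.3 times for Gbp2b.

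Of 16 receptors and signalling genes, 14 reached 20 CPM, of which 3 were at least 2-fold lower and 0 higher by that size, with a median of -0.71. The chain of the interferon gamma receptor that binds the ligand, Ifngr1, had 265 CPM in Ter119 and 533 CPM in saline (0.498). Irf1, a transcription factor gene that interferon induces, had 66.8 CPM in Ter119 and 157 CPM in saline (0.425). Irf8, a macrophage transcription factor gene, was level at 326 and 322 CPM (1.01). Of 7 ligand genes, Il18, whose product raises interferon gamma output by lymphocytes, was the 1 that reached 20 CPM, at 196 CPM in Ter119 and 99.9 CPM in saline (1.96).

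Of 24 interferon gamma targets outside the family, 18 reached 20 CPM, and 4 were at least 2-fold lower and 0 higher, with a median of -0.63. These 4 were Cd74, the invariant chain of antigen presentation (0.249), Slfn1 (0.253), Cxcl10 (0.387) and Casp4 (0.470), while the chemokine gene Cxcl9 (1.34) and the inflammasome protease gene Casp1 (1.15) had ratios above 1. The immunoproteasome genes Psmb8 (0.884) and Psmb10 (0.828) were among those that turned above 1 under the other scalings. All 21 type I interferon targets reached 20 CPM, and 9 were at least 2-fold lower and 0 higher, with a median of -0.95. Irf7, which amplifies type I interferon, had 151 CPM in Ter119 and 726 CPM in saline (0.207), Ifi27l2a 453 and 1961 CPM (0.231) and Oas2, a sensor of viral RNA, 0.288, while Ifi44 had 1.20. The medians of these 4 lists and of the 8 members lie below the all-gene median of -0.28, and stayed below 0 under both other scalings, in which 1 further GTPase, 0 signalling genes, 3 interferon gamma targets and 5 type I targets were at least 2-fold lower, where 331 (median-of-ratios) and 338 (TMM) of all genes were. These lists were chosen with earlier results of these data known.

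**Figure D5:**
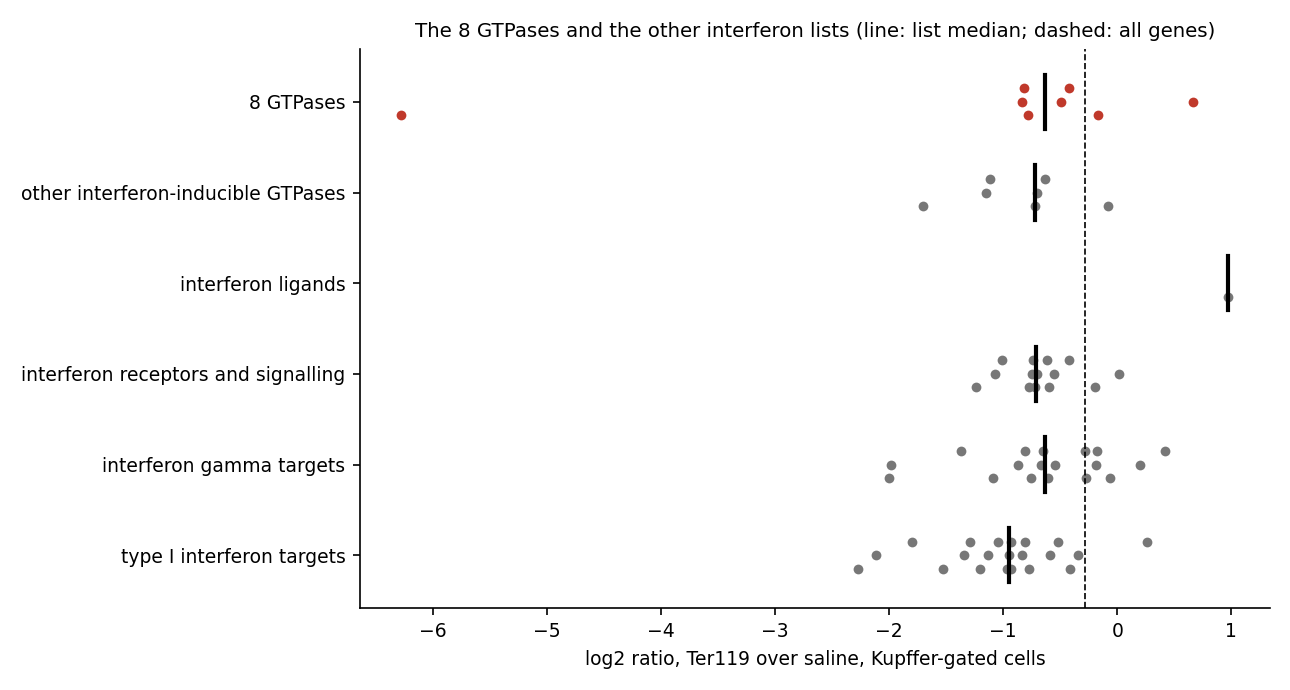
Log2 ratio of Ter119 over saline in Kupffer-gated cells (horizontal axis) for the 8 GTPases (red) and for the genes of 5 other interferon lists that reached 20 CPM (grey, 1 point a gene). Black lines are list medians, from -0.95 for type I interferon targets to -0.63 for interferon gamma targets, apart from the single ligand gene Il18, and the dashed line is the all-gene median of -0.28; Gbp2b is the point at -6.27.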

How the data were processed

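For each of the 2 libraries the authors deposited raw, whole-number UMI counts, with no normalization. The version of Cell Ranger is 6.0.2 per the file headers. The submitters' processing notes name version 4.0.0 instead, and also GRCm38.p6, DESeq2 1.26.0, Seurat 3.2.3 and Scanpy 1.7.0. The sources used here do not say how hashtags split the mice. A barcode was kept if it had 1000 UMIs or more, 500 genes or more and no more than 15% of UMIs from mitochondrial genes.

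Cells were gated by the UMIs of marker panels per 10000 and a minimum number of markers: 100 and 3 for Kupffer cells, 40 and 2 for monocytes, 20 and 3 for dendritic cells, 300 and 2 for neutrophils, 50 and 3 for endothelial cells, 30 and 3 for B cells, 20 and 3 for T or NK cells, and 3000 and 2 for hemoglobin-rich cells. No doublet caller was run. Barcodes that passed several gates were left out, except that cells passing the neutrophil gate were not held to the monocyte gate. Counts were summed per type and library and scaled to CPM (a total of 1000000). CPM has exact Poisson intervals, shares exact Clopper-Pearson intervals and ratios exact conditional binomial intervals, all at 0.95, and a count of 0 was set to 3 for ratios. No test was run, since each group has 1 sample, so 2-fold is a size rule over genes with at least 20 CPM in 1 library. For shares of cells with a UMI, cells were thinned to 1000 UMIs. UMIs at 3′ ends were not scaled by transcript length.

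The genes named are the 8 members, genes of 5 interferon lists with at least 20 CPM, and the 5 genes most like Gbp2b and most like the mean of the other 7 in log2(CPM + 1); marker genes, Cd209f, Sectm1a and Gpnmb were named after their values were seen. The members and lists were chosen with earlier results of these data known. Gene positions come from GENCODE vM21 by gene identifier, and upstream sequences from RefSeq, in which 8 of 8 members matched and the windows of 7, all but Iigp1, were searched. Gm12250 was not used here. Of the signalling list, 1 gene is counted but not reported by name here. The ratio and its interval were tested on simulated Poisson counts, the model that the interval itself assumes. The simulation held no spread between cells or mice, so it cannot show how the intervals fare with such spread. Alternatives covered gates, clustering, cell filters, scaling, depth and doublets. Sums and intervals used pandas 2.3.3, numpy 2.4.6 and scipy 1.17.1 under python 3.11.15, figures matplotlib 3.10.9, clustering scanpy 1.11.5 and leidenalg 0.10.2, and TMM factors edgeR 4.0.16 under R 4.3.3.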

Additional observations from a re-analysis of the deposited data

Results flagged for a closer look

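For 4 members the ratio of Ter119 over saline pointed in opposite directions in different gated types, with intervals that exclude 1 on either side, and the difference between types was not tested over mice. Gbp2 stood at 1.58 in Kupffer-gated cells but at 0.537 in monocytes and 0.0963 in neutrophils. Its 186 UMIs in saline neutrophils lay in 30 of 174 cells. Iigp1 stood at 1.62 in endothelial cells, 0.711 in Kupffer-gated cells and 0.539 in monocytes. Gbp3 stood at 1.33 in endothelial cells, against 0.559 in Kupffer-gated cells, 0.689 in monocytes and 0.256 in neutrophils. Ifi47 did likewise, at 1.32 in endothelial cells, 0.568 in Kupffer-gated cells, 0.665 in monocytes and 0.186 in neutrophils. The 7 genes other than Gbp2b, summed, gave 1.25 in endothelial cells, 0.785 in Kupffer-gated cells, 0.580 in monocytes and 0.173 in neutrophils. With 1 library a group, these are differences between cell types within a pair of libraries.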

How the results depend on the processing

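Gbp2b was the 1 member at least 2-fold lower in Kupffer-gated cells under all 17 settings, and its log2 ratio ran from -6.53 to -5.88. Against -6.27, it was -5.98 with at most 5% mitochondrial UMIs, -5.95 with median-of-ratios factors, -5.97 with TMM factors and -5.88 in cells with 2000 to 4000 UMIs. The median of the other 7, -0.49, was -0.56 for clusters in place of gates, -0.17 with median-of-ratios and -0.19 with TMM factors, -0.42 without hemoglobin and mitochondrial genes in the total, -0.62 without cells with a Cxcl10 UMI and -0.38 in cells with 2000 to 4000 UMIs. Gbp7 turned to 0.15 (median-of-ratios), 0.13 (TMM) and 0.020 (2000 to 4000 UMIs), and Igtp to 0.071 in the last; the cause was not tested. The share of Gbp2b among the family's UMIs was 0.666% in Ter119 and 23.8% in saline with at most 5% mitochondrial UMIs, and in saline 24.97% after thinning, 24.96% without Cxcl10 cells and 23.8% in cells with 2000 to 4000 UMIs. Of all genes, 643 were at least 2-fold lower with CPM, 331 with median-of-ratios and 338 with TMM factors, and 3001 with no minimum level and 352 with at least 50 CPM. Settings on the Kupffer threshold, the short marker panel, hemoglobin-rich barcodes and the range of 2000 to 4000 UMIs were chosen after the data were seen.

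No paired analysis was possible because the groups share only 1 replicate number, with 1 sample a group. No replicate was left out, since each group has 1. Depth limits Gbp2b in Ter119, with 106 UMIs in Kupffer-gated cells and 0 to 6 in other types. The levels of endothelial (at most 72.6% of the Kupffer level), hemoglobin-rich (80.5%) and neutrophil gates (88.7%) lay below it, and those of the other types could not be placed. Free RNA was not subtracted.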
